A study of Arabidopsis thaliana with 3 samples.

Results

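The Aux/IAA repressors and ARF transcription factors of Arabidopsis thaliana were described across 3 RNA-seq libraries of first-pair rosette leaves of accession Col-0. The genes are 44 loci taken by name from 33602 in the count tables, 29 Aux/IAA genes and 15 ARF genes. They were chosen as named members of these families and not by a cut on their levels. The list does not hold the whole ARF family, since 8 other ARF loci, given further on, lie outside it. Each of 3 groups has 1 library: wounded leaf explants at 2 days, the 2-day control, and T0, a control that the labels give no time of its own. The labels name no transgene, mutation or added agent in any group, and they record all at 12 days after sowing, so it is not known whether T0 and the 2-day leaves differed in age. The explants were detached pieces of leaf kept on B5 medium lacking carbohydrate, a system in which new roots can arise near the wound. The series title concerns a NAC pathway, described as independent of auxin, in wounded explants. The design text speaks of a wound site and of leaf residue, and nothing in the labels tells which of these each library holds, how many leaves were pooled or at what hour they were taken.

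Auxin acts by removing repressors. In most cells Aux/IAA proteins sit on ARF proteins, which bind DNA at auxin response elements, and recruit TOPLESS co-repressors to keep the target genes silent. When auxin binds the TIR1/AFB receptors, these attach ubiquitin to the Aux/IAA proteins and the proteasome destroys them, which frees the ARFs. Many Aux/IAA genes are themselves targets of the ARFs and are transcribed within minutes of auxin treatment, so their RNA is often read as a sign of auxin response and also feeds back on it. ARF genes respond less to auxin, and several are held down by small RNAs.

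Gene counts summed to 43099934 at T0, 45097732 in the 2-day control and 46713257 in the explant. The unit of level is CPM, a count scaled to its library's size with a TMM factor, or CPM per kb of exon where genes are compared with each other. A ratio between libraries is followed in brackets by its exact 95% counting interval, and the words higher and lower are used as calls only for genes whose whole interval was past 2-fold. With 1 library per group no test over replicates was possible, so a call compares these libraries and not the conditions, and the interval covers counting error only. Of 6 leaf mesophyll markers all were detected in every library, among them RBCS1A, a small subunit gene of RuBisCO, at 2395, 2001 and 1712 CPM at T0, in the 2-day control and in the explant. These markers did not keep a common level, as given with the other cell type markers at the end. In bulk leaf RNA, fewer cells of a type and less RNA per cell cannot be told apart.

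All 15 ARF genes and 25 of the 29 Aux/IAA genes had at least 30 counts when the libraries were summed, the filter used throughout. The other 4 Aux/IAA genes were close to silent: IAA20 had 12, 4 and 8 counts at T0, in the 2-day control and in the explant, IAA15 had 1, 0 and 1, IAA33 had 1, 1 and 2, and IAA31 had 0, 0 and 1. Outside the list, the 8 remaining ARF loci, ARF12 to ARF15 and ARF20 to ARF23, had at most 2 counts in any library.

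Against T0, many Aux/IAA genes were lower in the 2-day libraries. In the 2-day control 11 of the 25 were lower, 44% of them beside 8.43% of all 20109 genes tested, and 1 was higher, 4% beside 8.69%. In the explant 16 were lower, 64% beside 13.3%, and 2 were higher, 8% beside 17.7%. The median log2 ratio to T0 of the 25 genes was -0.77 in the 2-day control and -1.55 in the explant, against 0.04 and 0.02 over all genes. The calls and medians are of genes past the filter. IAA34, counted as lower in both comparisons, reached the filter only through its T0 count. Both comparisons use the same T0 library.

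**Figure D1:**
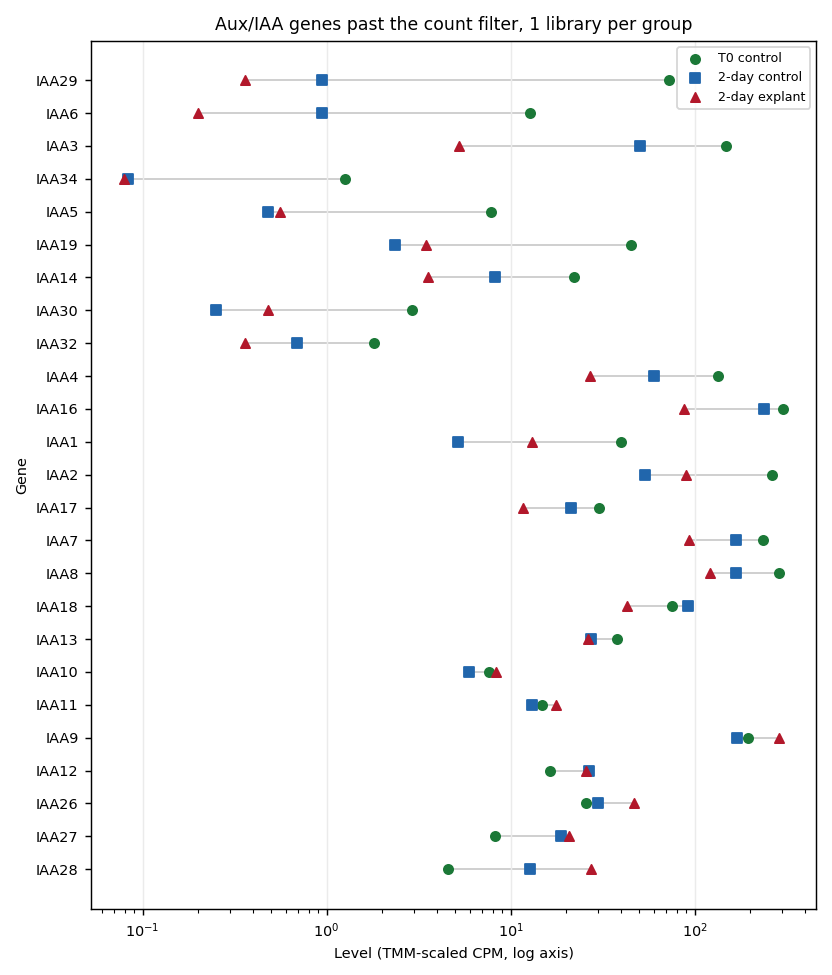
Level of the 25 Aux/IAA genes past the count filter in each library, as TMM-scaled CPM on a log axis, 1 point per library, ordered by the ratio of explant to T0 with the lowest at the top. IAA29, at 72.9 CPM at T0, lay below 1 CPM in both 2-day libraries, while IAA28 at the bottom lay at 4.59 CPM at T0 and 27.4 CPM in the explant.

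By their ratios, IAA29, IAA6, IAA19, IAA5 and IAA34 were each more than 10 times lower than T0 in both 2-day libraries. IAA34 passed the filter only through its T0 count and had 4 counts in each 2-day library. IAA29 (AT4G32280), an Aux/IAA gene known to be switched on by PIF factors in shade and warmth, stood at 72.9 CPM at T0, 0.943 CPM in the 2-day control and 0.358 CPM in the explant. It was 77.3 times lower in the 2-day control relative to T0 (57.6 to 106), and 203 times lower in the explant (128 to 344). The 2-day control had 45 IAA29 counts and the explant 18, so the explant-to-control ratio of 0.380 (0.207 to 0.669) missed the rule.

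IAA19 (AT3G15540), known as MSG2 from its role in the bending of hypocotyls to light, and IAA6 (AT1G52830), known as SHY1, are close relatives. IAA19 had 44.9 CPM at T0, 2.35 CPM in the 2-day control and 3.48 CPM in the explant, so it was 19.1 times lower in the 2-day control (15.8 to 23.4) and 12.9 times lower in the explant (11.02 to 15.1). IAA6 had 12.7, 0.943 and 0.199 CPM in the same order. Its 483 counts at T0 became 45 and then 10, 13.5 times lower in the 2-day control relative to T0 (9.94 to 18.8) and 64.0 times lower in the explant (34.5 to 134). Only IAA6 of the pair was also lower in the explant relative to the 2-day control, by 4.74 times (2.35 to 10.5), against an IAA19 ratio of 1.48 (1.16 to 1.90). The explant-to-control ratios of these genes differed from each other by 7.03-fold (3.31 to 16.2), a value that needs no scaling since both genes are read in the same libraries.

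The promoters of IAA6 and IAA19 are shown because these relatives shared the large difference from T0 and parted in the explant. Each is the 200 bases before the annotated start of the gene in the RefSeq annotation of TAIR10.1, 5′ to 3′ on the gene's strand, IAA6 at chr1:19673653-19673852 (minus strand) and IAA19 at chr3:5263801-5264000 (plus strand). Capitals mark the auxin response element core TGTCTC and the G-box CACGTG, the latter being the element that PIF factors bind.
IAA6: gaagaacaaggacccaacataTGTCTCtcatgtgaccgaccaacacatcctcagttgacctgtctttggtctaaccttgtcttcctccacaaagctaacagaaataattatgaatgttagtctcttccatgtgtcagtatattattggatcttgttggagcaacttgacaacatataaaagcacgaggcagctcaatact
IAA19: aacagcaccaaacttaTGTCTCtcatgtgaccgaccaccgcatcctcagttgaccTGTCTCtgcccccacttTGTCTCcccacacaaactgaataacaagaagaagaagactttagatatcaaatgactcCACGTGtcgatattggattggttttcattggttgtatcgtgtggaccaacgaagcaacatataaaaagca
A stretch of 45 bases that opens 181 bases before the start of IAA6 and 186 bases before that of IAA19 was the same at 43 positions. IAA19 holds 3 copies of TGTCTC and 1 G-box in these 200 bases, and IAA6 holds 1 copy of TGTCTC and no G-box. The match is of letters alone and does not show a bound site.

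Across both families, TGTCTC or its reverse complement GAGACA lay between 250 bases before and 50 after the annotated start in 12 of 29 Aux/IAA genes (41.4%) and 1 of 15 ARF genes, beside 14.2% of 27443 promoters. The variant TGTCGG or CCGACA lay in 6 Aux/IAA genes (20.7%) and 2 ARF genes, ARF7 and ARF19, beside 5.12%. The G-box lay in 5 Aux/IAA genes (17.2%) and in no ARF gene, beside 7.68%. The families stood closer in 1000 bases before the start. There TGTCTC lay in 58.6% of Aux/IAA genes, 40.0% of ARF genes and 39.6% of all promoters, TGTCGG in 27.6%, 33.3% and 14.6%, and the G-box in 27.6%, 26.7% and 14.8%.

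IAA5 (AT1G15580), another member of the IAA6 and IAA19 branch, had 296 counts at T0, 23 in the 2-day control and 28 in the explant. That made it 16.2 times lower in the 2-day control relative to T0 (10.6 to 25.9) and 14 times lower in the explant (9.49 to 21.4), with an explant-to-control ratio of 1.16 (0.642 to 2.10).

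A second pattern, low in the 2-day control and partly back in the explant, was seen in IAA1 and IAA2, a pair of early auxin-induced genes. IAA1 (AT4G14560) stood at 40.0 CPM at T0, 5.20 CPM in the 2-day control and 13.2 CPM in the explant. It was 7.70 times lower in the 2-day control relative to T0 (6.73 to 8.84), and 2.53-fold higher in the explant relative to the 2-day control (2.18 to 2.94). This was the single Aux/IAA gene of 25 called higher between the 2-day libraries, 4% beside 10.0% of all genes, and its call was lost with a wider interval of higher confidence. IAA2 (AT3G23030), the most abundant Aux/IAA per kb at T0, went from 262 CPM to 53.6 CPM in the 2-day control and 89.4 CPM in the explant. Its explant-to-control ratio of 1.67 (1.59 to 1.75) stayed short of 2-fold. Both remained lower in the explant relative to T0, IAA1 by 3.04 times (2.77 to 3.34) and IAA2 by 2.93 times (2.83 to 3.04).

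The opposite step was seen in IAA3 and IAA4, which were lowest in the explant. IAA3 (AT1G04240), known as SHY2 and a brake on root meristem growth through which cytokinin acts, stood at 148 CPM at T0, 50.8 CPM in the 2-day control and 5.26 CPM in the explant. It was 9.67 times lower in the explant relative to the 2-day control (8.51 to 11.02) and 28.1 times lower than at T0 (24.9 to 32.0). IAA4 (AT5G43700) had 134, 60.4 and 27.1 CPM, and was 2.23 times lower in the explant relative to the 2-day control (2.09 to 2.38). Both were already lower in the 2-day control relative to T0, IAA3 by 2.91 times (2.77 to 3.05) and IAA4 by 2.22 times (2.12 to 2.33), the latter call being lost with total counts. From the 2-day control to the explant the IAA3 ratio was 4.34 times lower than that of IAA4 (3.76 to 5.02). In the reference annotation 39.6% of the IAA3 exon bases also lie in AT1G04230 on the other strand, and with no strand setting given the IAA3 counts are uncertain. The overlapping gene had 898, 689 and 755 counts, which do not show how reads in the shared bases were assigned.

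Together 5 of the 25 Aux/IAA genes were lower in the explant relative to the 2-day control, 20% beside 6.74% of all genes: IAA3, IAA4, IAA6, IAA16 and IAA18. With a wider interval of higher confidence 3 remained, and the calls of IAA6 and IAA18 were lost. The median log2 ratio of the 25 was -0.06, against -0.00 over all genes. IAA16 (AT3G04730), the second most abundant Aux/IAA per kb at T0, was at 304 CPM at T0, 238 CPM in the 2-day control and 87.7 CPM in the explant, 2.72 times lower than in the 2-day control (2.62 to 2.81). IAA18 (AT1G51950) was at 75.2, 92.2 and 42.8 CPM and was 2.15 times lower in the explant relative to the 2-day control (2.05 to 2.27). It passed against the 2-day control and not against T0, where its ratio was 0.569 (0.538 to 0.602).

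**Figure D2:**
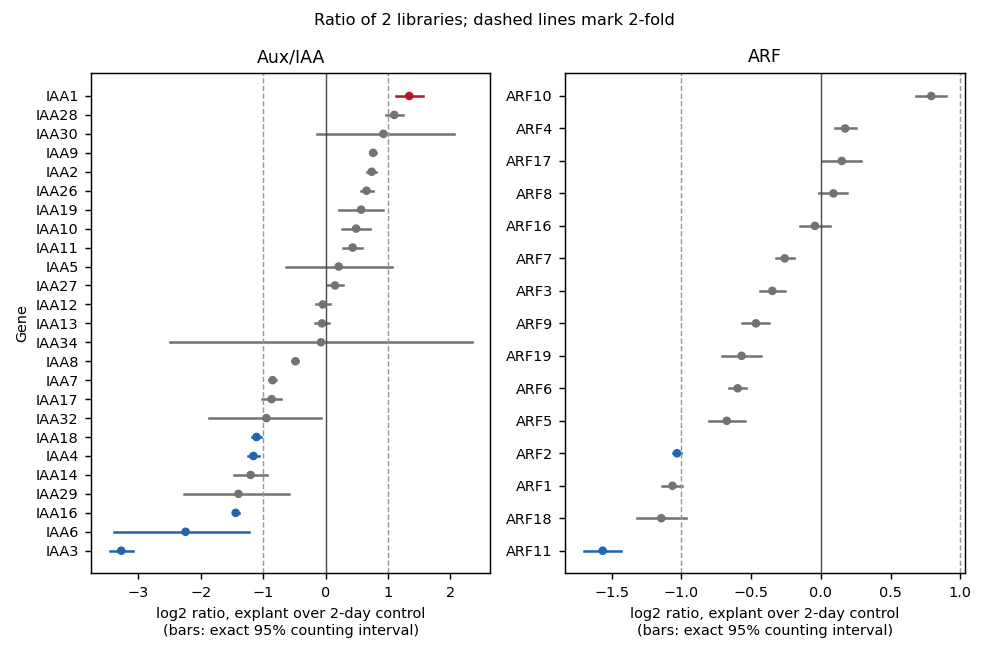
Log2 ratio of explant to 2-day control for the 25 Aux/IAA and 15 ARF genes past the filter, with exact 95% counting intervals as bars, called genes in red (higher) or blue (lower) and dashed lines at 2-fold. IAA1 lies alone beyond the upper line with its whole interval, and IAA3 lies lowest, with a ratio 9.67 times below 1.

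IAA7, IAA14, IAA16 and IAA17 form one branch. Its stabilised mutant forms are known to change auxin responses (IAA7 as AXR2, IAA17 as AXR3) or to block lateral roots (IAA14 as SLR). These genes were all lowest in the explant. IAA7 (AT3G23050) went from 235 CPM at T0 to 168 CPM in the 2-day control and 93.5 CPM in the explant, IAA14 (AT4G14550) from 22.1 to 8.20 and 3.56 CPM, and IAA17 (AT1G04250) from 30.4 to 21.4 and 11.7 CPM. Against T0 the explant was 6.19 times lower in IAA14 (5.26 to 7.31), 3.47 times in IAA16 (3.35 to 3.59), 2.58 times in IAA17 (2.34 to 2.86) and 2.52 times in IAA7 (2.43 to 2.61). The last 2 calls were lost with scaling by total counts. In the 2-day control IAA14 was 2.69 times lower relative to T0 (2.38 to 3.04), also lost with total counts. IAA14 was 2.30 times lower in the explant relative to the 2-day control (1.92 to 2.76), just short of the rule, and IAA7 and IAA17 lay at 1.80 and 1.82 times lower.

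IAA8, IAA9 and IAA27 are another branch, and here relatives differed in direction from T0. IAA8 (AT2G22670) stood at 287 CPM at T0, 169 CPM in the 2-day control and 121 CPM in the explant, 2.38 times lower in the explant relative to T0 (2.31 to 2.46), a call lost with total counts. IAA9 (AT5G65670), known with IAA6 and IAA17 as a repressor of adventitious rooting, stood at 195, 170 and 288 CPM. Its explant-to-control ratio was 1.69 (1.65 to 1.74), so the explant was highest without passing 2-fold. Between the 2-day libraries the ratios of IAA9 and IAA8 differed by 2.37-fold (2.27 to 2.47). IAA27 (AT4G29080), a phytochrome-binding family member, had 8.28 CPM at T0 and 18.7 and 20.8 CPM in the 2-day libraries, 2.51-fold higher in the explant relative to T0 (2.21 to 2.86).

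IAA28 (AT5G25890) had the largest ratio upward in either family. Stabilised IAA28 protein suppresses lateral root formation, and the gene is known to be turned down by auxin. Its level was 4.59 CPM at T0, 12.8 CPM in the 2-day control and 27.4 CPM in the explant. It was 2.78-fold higher in the 2-day control relative to T0 (2.35 to 3.31) and 5.96-fold higher in the explant (5.09 to 7.02). The step between the 2-day libraries was 2.14-fold (1.95 to 2.36), with the lower bound just inside the limit. IAA26 (AT3G16500), its relative that binds phytochrome, was at 25.8, 29.9 and 47.1 CPM, 1.82-fold above T0 in the explant (1.69 to 1.97). From the 2-day control to the explant, IAA26 and IAA18 parted by 3.39-fold (3.12 to 3.69).

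IAA10, IAA11, IAA12 and IAA13 were called in no comparison. IAA12 (AT1G04550), known as BDL, which holds back ARF5 in the embryo, was at 16.4 CPM at T0, 26.5 CPM in the 2-day control and 25.7 CPM in the explant. IAA13 was at 38.1, 27.3 and 26.2 CPM, IAA11 at 14.8, 13.1 and 17.7 CPM, and IAA10 at 7.68, 5.98 and 8.38 CPM. Of the IAA13 exon bases 35.3% also lie in another gene model, which had 0 counts in every library.

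IAA20, IAA30, IAA31, IAA32, IAA33 and IAA34 lack the usual degron, the stretch through which auxin marks the protein for destruction. Of these only IAA30, IAA32 and IAA34 passed the filter, IAA34 only through its T0 count, and each was highest at T0. IAA30 (AT3G62100) had 111 counts at T0, 12 in the 2-day control and 24 in the explant, IAA34 (AT1G15050) had 48, 4 and 4, and IAA32 (AT2G01200) had 69, 33 and 18. The explant was lower than T0 by 6.13 times in IAA30 (3.91 to 9.97), 15.9 times in IAA34 (5.82 to 60.7) and 5.08 times in IAA32 (2.99 to 9.07). Of the IAA32 exon bases 44.2% lie in a second gene model, and 12.3% of those of IAA34, so both counts are uncertain.

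As a pool, the 29 Aux/IAA genes held 1994 CPM at T0, 1177 CPM in the 2-day control and 962 CPM in the explant. The explant pool was 2.07 times lower than T0 (2.05 to 2.10) and 1.22 times lower than the 2-day control (1.21 to 1.24). The make-up of the pool differed as well. Per kb of exon, IAA2 led at T0 with 15.8% of the Aux/IAA level, IAA16 led the 2-day control with 18.0%, and IAA9 led the explant with 25.1%. IAA9 alone took 29.9% of all Aux/IAA counts in the explant (exact binomial interval 29.5% to 30.3%), against 14.4% in the 2-day control (14.1% to 14.7%) and 9.79% at T0 (9.58% to 10.0%). IAA3 went from 8.92% per kb at T0 and 5.74% in the 2-day control to 0.724% in the explant, from the fifth place to rank 17.

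**Figure D3:**
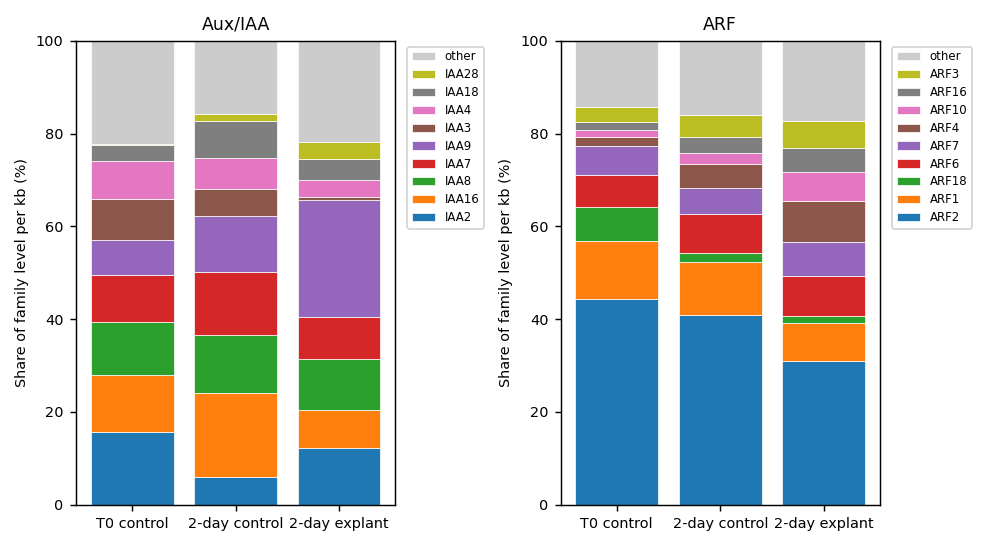
Share of each gene in the summed level per kb of exon of its family, in percent, for each library (1 bar per library), with the 9 genes shown by name and all others in light grey. IAA9 fills 25.1% of the Aux/IAA bar of the explant, and ARF2 shrinks from 44.4% of the ARF bar at T0 to 30.9% in the explant.

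Fewer of the ARF genes were called, and whether the families differ in this was not tested. In the explant against the 2-day control 2 of 15 were lower, 13.3% beside 6.74% of all genes, and 0 were higher, beside 10.0%. Against T0 the explant had 5 lower (33.3% beside 13.3%) and 2 higher (13.3% beside 17.7%), and the 2-day control had 1 lower and 1 higher (6.67% each, beside 8.43% and 8.69%). Their median log2 ratio for the explant was -0.47 with the 2-day control as base and -0.37 with T0 as base. The summed ARF level was 1230 CPM at T0, 1171 CPM in the 2-day control and 752 CPM in the explant. The explant sum was 1.56 times lower than the 2-day control (1.54 to 1.58) and 1.64 times lower than T0 (1.61 to 1.66). Between the 2-day control and T0 the direction of the sum was not settled, with a ratio of 0.952 (0.940 to 0.964) that became 1.15 with scaling by total counts. Per kb the Aux/IAA pool was 3.47 times the ARF pool at T0, 1.95 times in the 2-day control and 2.47 times in the explant.

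**Figure D4:**
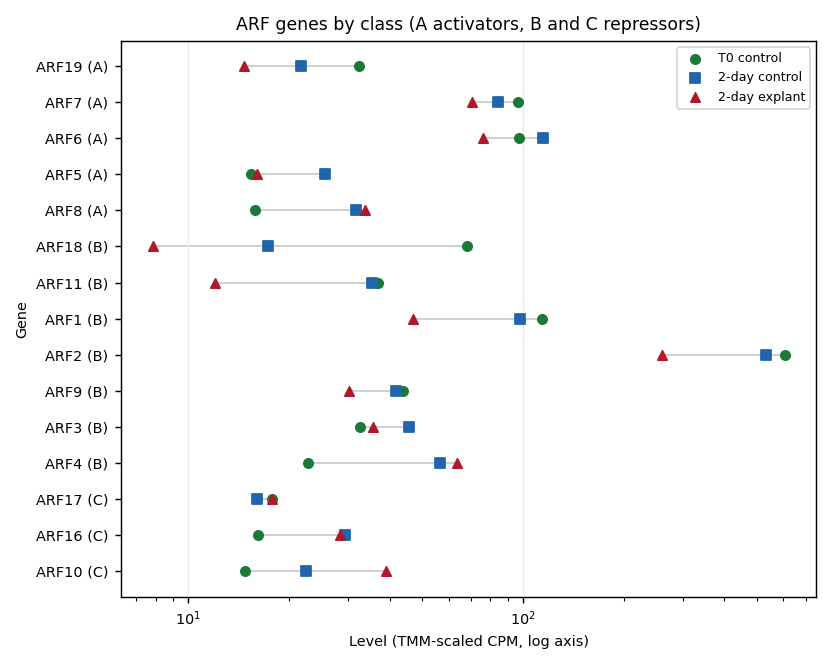
Level of the 15 ARF genes in each library, as TMM-scaled CPM on a log axis, 1 point per library, grouped as activators (A) and repressors of classes B and C. ARF2 is the most abundant in every library, and the class B genes ARF1, ARF2, ARF9, ARF11 and ARF18 were lowest in the explant, while the class C gene ARF10 was highest there. Members of a class did not all go the same way. ARF4 of class B was highest in the explant, and ARF16 and ARF17 of class C were not. Of the activators, ARF6, ARF7 and ARF19 were lowest there and ARF8 highest.

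Activator ARFs carry the glutamine-rich middle region that drives transcription, and none of the 5 was called between the 2-day libraries. ARF7 (AT5G20730) and ARF19 (AT1G19220) start lateral roots by switching on LBD16 and its relatives. ARF7 was at 96.5 CPM at T0, 84.4 CPM in the 2-day control and 70.5 CPM in the explant. ARF19 was at 32.4, 21.8 and 14.7 CPM, 2.21 times lower in the explant relative to T0 (2.02 to 2.42), a call lost with total counts. ARF5 (AT1G19850), known as MONOPTEROS and needed for the embryonic root and for veins, was at 15.4, 25.6 and 16.1 CPM. ARF6 (AT1G30330) and ARF8 (AT5G37020), which promote adventitious rooting of hypocotyls, were at 97.7, 115 and 75.7 CPM and at 15.8, 31.6 and 33.7 CPM. The ARF8 ratio of explant to T0 was 2.13 (1.94 to 2.34), just short of the rule, and it passed with total counts.

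Class B repressors held most of the ARF level per kb, 77.5% at T0, 72.2% in the 2-day control and 62.0% in the explant. ARF2 (AT5G62000), a repressor that limits organ growth and promotes leaf ageing, stood at 606 CPM at T0, 531 CPM in the 2-day control and 260 CPM in the explant. It was 2.04 times lower in the explant relative to the 2-day control (2.00 to 2.09), at the edge of the rule, and was not called with DESeq2 size factors, total counts or the wider interval. ARF1 (AT1G59750), which acts beside ARF2, had 114, 98.2 and 47 CPM, and its explant-to-control ratio of 0.478 (0.455 to 0.503) just missed the rule. ARF11 (AT2G46530) had 36.9, 35.5 and 12.0 CPM, 2.96 times lower in the explant relative to the 2-day control (2.69 to 3.25). Against T0 the explant was 3.07 times lower in ARF11 (2.79 to 3.39), 2.43 times in ARF1 (2.31 to 2.55) and 2.33 times in ARF2 (2.28 to 2.38), and with total counts the ARF1 and ARF2 calls were lost. ARF18 (AT3G61830) had 67.9, 17.3 and 7.85 CPM, 8.65 times lower in the explant relative to T0 (7.78 to 9.64) and 3.91 times lower in the 2-day control (3.62 to 4.24). ARF9 (AT4G23980) had 43.9, 41.7 and 30.2 CPM and was not called.

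ARF3 and ARF4, which set the lower side of the leaf, are counted in class B. ARF4 was the 1 class B gene of 7 whose interval between the 2-day libraries did not lie below 1. ARF4 (AT5G60450) had 22.8 CPM at T0, 56.4 CPM in the 2-day control and 63.7 CPM in the explant, 2.48-fold and 2.80-fold above T0 (2.29 to 2.68 and 2.59 to 3.02). ARF3 (AT2G33860) had 32.6, 45.5 and 35.8 CPM, with an explant-to-control ratio of 0.786 (0.738 to 0.837). Per kb, ARF4 moved from rank 10 among the ARF genes at T0 to rank 5 in the 2-day control and rank 2 in the explant.

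The class C repressors are the genes with a miR160 site, and ARF10 alone of them was called. ARF10 (AT2G28350) and ARF16 (AT4G30080) control root cap cells, and ARF17 (AT1G77850) holds back adventitious rooting. ARF10 had 14.7 CPM at T0, 22.5 CPM in the 2-day control and 38.9 CPM in the explant, 2.64-fold above T0 in the explant (2.40 to 2.90) and 1.73-fold above the 2-day control (1.61 to 1.87). ARF16 had 16.1, 29.4 and 28.5 CPM, and ARF17 17.9, 16.1 and 17.8 CPM. The summed class C counts were 2.27-fold higher relative to class B in the explant when set against the 2-day control (2.16 to 2.39), and 3.54-fold higher against T0 (3.35 to 3.75). Between the 2-day libraries the activators were 1.37-fold higher relative to class B (1.33 to 1.41). These ratios are free of scaling. Between the 2-day libraries they rest largely on the smaller class B sum in the explant. Against T0 both sums differed, with class C in the explant 1.75-fold above T0 (1.66 to 1.85) and class B 2.03 times lower (1.99 to 2.06). At T0, in the 2-day control and in the explant class B summed to 924, 825 and 456 CPM. Class C summed to 48.7, 67.9 and 85.3 CPM, and the activators to 258, 278 and 211 CPM. ARF2 gave 25310 of 39367 class B counts in the 2-day control and 13035 of 22902 in the explant. Class B without ARF2 was not tested.

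Small RNAs of the miR160, miR167 and TAS3 kinds act on ARF transcripts, and their target sites are shown because the ARF genes that carry a site and those that do not can be set beside each other. The mature miRNAs are those of the RefSeq annotation of TAIR10.1, with capitals for the seed, bases 2 to 8. For the TAS3A locus, which gives the small RNAs called tasiR-ARF, the stretch shown is the run of 21 bases that pairs best with ARF2, ARF3 and ARF4 together.
miR160a-5p: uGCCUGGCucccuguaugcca
miR167a-5p: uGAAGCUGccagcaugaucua
TAS3A stretch: uuucuugaccuuguaagaccc
In the sites, on the strand of the gene, capitals mark bases that pair with the small RNA by Watson-Crick rules and lower case those that do not.
ARF10, miR160: aGGaATACAGGGAGCCAGGCA
ARF16, miR160: gGGttTACAGGGAGCCAGGCA
ARF17, miR160: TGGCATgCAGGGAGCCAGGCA
ARF6, miR167: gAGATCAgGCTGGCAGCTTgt
ARF8, miR167: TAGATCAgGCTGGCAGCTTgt
ARF2, TAS3: GGGTCTTgCAAGGTCAAGAAt
ARF3, TAS3: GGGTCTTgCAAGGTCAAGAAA
ARF4, TAS3: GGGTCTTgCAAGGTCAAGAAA
The miR160 and miR167 sites lie in coding exons, at chr2:12115741-12115761 (plus) in ARF10, chr4:14704141-14704161 (minus) in ARF16, chr1:29274189-29274209 (plus) in ARF17, chr1:10686478-10686498 (minus) in ARF6 and chr5:14633841-14633861 (plus) in ARF8. The miR160 sites have 1 to 3 mismatches, the miR167 sites 3 and 4, and the TAS3 sites 1 or 2. In no other gene of either family did a stretch come closer than 8 mismatches to miR160 or 7 to miR167 or TAS3A.

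Loci of the small RNAs themselves were counted in part. Of 12 such loci 5 passed the filter, and 3 of these were lower in the explant relative to the 2-day control, beside 6.74% of all genes; the counts are of longer precursor RNA and do not give the amount of mature small RNA. MIR167D (AT1G31173) had 57.7 CPM at T0, 39.6 CPM in the 2-day control and 5.26 CPM in the explant, 7.54 times lower in the explant relative to the 2-day control (6.63 to 8.61). MIR167A (AT3G22886) had 3.46, 9.62 and 1.25 CPM, 7.67 times lower (5.89 to 10.15). MIR160C (AT5G46845) had 21, 52 and 11 counts, 4.98 times lower in the explant relative to the 2-day control (2.57 to 10.6). TAS3A (AT3G17185) went the other way from T0, with 4.14, 9.18 and 12.4 CPM, 3.0-fold higher in the explant (2.51 to 3.6). MIR167B, with 17, 28 and 9 counts, was not called, and MIR167C, MIR390A and MIR390B were listed at 0.

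Set beside these precursors, the 3 ARF genes with a miR160 site had explant-to-control ratios of 1.73 (ARF10), 0.971 (ARF16) and 1.11 (ARF17). The pair with a miR167 site had 0.661 (ARF6) and 1.06 (ARF8), neither of them beyond 2-fold. Of the 3 genes with a TAS3 site, ARF2 had 0.489, ARF3 0.786 and ARF4 1.13. In all, 10 of the 15 ARF genes had their whole interval below 1, beside 39.8% of all genes. They were ARF2, ARF3 and ARF6, which carry a site, and all 7 genes with none of these sites. Whether the small RNAs have a part in these ratios was not tested.

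**Figure D5:**
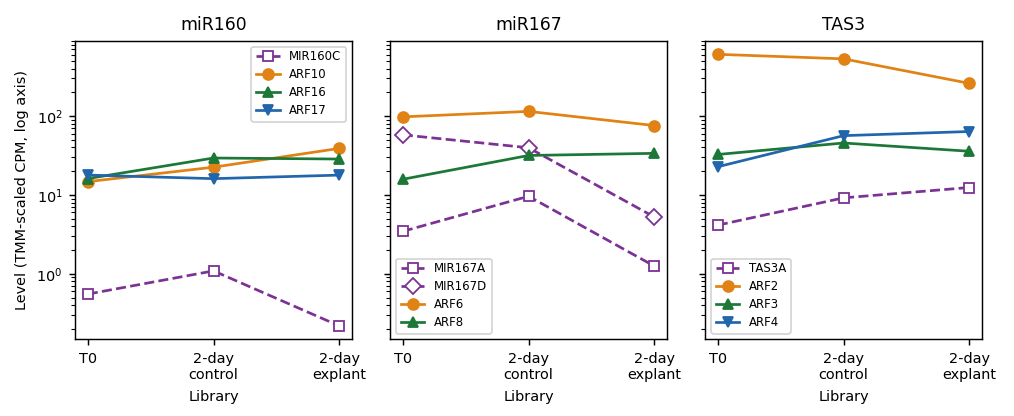
Level of small RNA precursor loci (dashed, open symbols) and of the ARF genes that carry their site (solid), as TMM-scaled CPM on a log axis in each library; lines join the libraries of 1 gene and do not mark a time course. MIR167D and MIR167A lie 7.54 and 7.67 times lower in the explant relative to the 2-day control, while ARF8 is level at 31.6 and 33.7 CPM.

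Of 15 pairs of close relatives, 14 had both genes past the filter. Between the explant and the 2-day control 4 pairs had ratios that differed from each other beyond 2-fold with their interval: IAA3 and IAA4, IAA6 and IAA19, IAA8 and IAA9, and IAA18 and IAA26. None of these was an ARF pair. Against T0 the explant had 9 such pairs and the 2-day control 1, ARF11 and ARF18, which differed by 3.77-fold (3.38 to 4.19). With a wider interval of higher confidence the 9 pairs of the explant fell to 6. For IAA12 and IAA13, ratios between the 2-day libraries differed by 1.01-fold (0.904 to 1.13), and for IAA10 and IAA11 by 1.04-fold (0.863 to 1.25), values whose intervals allow differences of up to 1.13-fold and 1.25-fold.

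Among the other parts of the pathway, the receptor AFB1 stood out. AFB1 (AT4G03190), a receptor linked to rapid auxin responses in roots, had 57.1 CPM at T0, 26.3 CPM in the 2-day control and 5.58 CPM in the explant, 4.72 times lower in the explant relative to the 2-day control (4.15 to 5.40). Of the 6 receptor genes it was the 1 called in any comparison, lower in each, where 6.74% to 13.3% of all genes were lower. Of the 9 genes of the SCF ubiquitin ligase and its regulators 0 were called in any comparison, where 6.74% to 17.7% of all genes were called in a given direction. Of the 5 TOPLESS co-repressor genes, TPL was 2.45-fold (2.38 to 2.53) and TPR3 2.26-fold higher (2.08 to 2.46) in the 2-day control relative to T0, where 8.69% of all genes were higher, and none was called between the 2-day libraries.

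Of 16 known target genes of ARFs 9 passed the filter, and between the 2-day libraries 6 were higher in the explant, beside 10.0% of all genes, and 0 lower. They were LBD16, HAT2 and the auxin-conjugating enzyme genes GH3.2, GH3.3, GH3.5 and GH3.6. LBD16 passed the filter only through its explant count, and the list was chosen with earlier results of these data known. LBD16 had 0 counts in both controls and 369 in the explant, which is 117-fold above a floor of 3 counts in the 2-day control. The lower bound of its interval was 94.5. Against T0 the explant had 4 of the 9 higher (GH3.2, GH3.3, GH3.6 and LBD16, beside 17.7% of all genes) and 3 lower (HAT2, LBD18 and TMO5, beside 13.3%). LBD18, with 21, 10 and 3 counts, passed the filter only through its T0 count. In the 2-day control 5 of the 9 were lower relative to T0, beside 8.43%, and 0 higher. GH3.2 stood at 12.1 CPM at T0, 0.398 CPM in the 2-day control and 91.2 CPM in the explant, a ratio between the 2-day libraries of 229 (146 to 381). GH3.3 stood at 25.6, 2.39 and 165 CPM, a ratio of 68.9 (57.3 to 83.7). HAT2, at 161 CPM at T0, 17.2 CPM in the 2-day control and 46.1 CPM in the explant, followed the order seen in IAA1 and IAA2, and GH3.5 was at 44.2, 4.57 and 35.4 CPM. GH3.6, at 7.47, 3.69 and 21.9 CPM, was highest in the explant.

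Markers of leaf cell types also differed between these libraries. The 6 mesophyll genes summed to 15063 CPM at T0, 7884 CPM in the 2-day control and 5953 CPM in the explant, but its members went different ways. LHCB1.1, a light-harvesting gene with near-identical copies, was at 2982, 21.6 and 72.9 CPM and LHCB1.2 at 3377, 367 and 229 CPM, while RBCS1B was 2.63-fold higher in the 2-day control and 2.55-fold higher in the explant against T0. The summed level of 4 phloem genes was 762 CPM at T0, 643 CPM in the 2-day control and 313 CPM in the explant, with 2 of 3 past the filter lower in the explant relative to the 2-day control (beside 6.74% of all genes) and RTM1 listed at 0. The 6 xylem genes summed to 153, 47.4 and 23.8 CPM, 1 of 6 lower in the explant relative to the 2-day control (beside 6.74%) and all 6 lower in the explant relative to T0 (beside 13.3%). The 5 epidermis and guard cell genes summed to 642, 689 and 588 CPM. Among them ATML1, an epidermal identity factor, was at 189.9 CPM at T0, 142 CPM in the 2-day control and 31.5 CPM in the explant, 4.50 times lower relative to the 2-day control (4.26 to 4.75), and CER6, a wax gene, was at 281, 362 and 409 CPM. Of 6 meristem genes PLT1 and PLT2 were listed at 0 throughout, WUS had 0, 0 and 1 counts, STM 0, 0 and 20, and WOX5, a root stem cell niche gene, 0, 8 and 30. SCR, also active outside meristems, was at 23.5, 46.0 and 44.1 CPM. The part of such differences in cell make-up in the Aux/IAA and ARF ratios was not tested.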

How the data were processed

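The authors deposited 3 tables of raw counts for each gene, 1 per library. TAIR10 as build and the tools HTSeq, FastQC and DESeq are named, per the submitters' processing notes. No aligner, strandedness or kit is given in the sources used here. Lines that name no gene were left out of the totals: 2.12% to 2.18% of reads were ambiguous and 0.677% to 0.763% lay in no gene. Counts were scaled with TMM factors of 0.879 (T0), 1.06 (2-day control) and 1.08 (explant) in edgeR 4.0.16 under R 4.3.3, on the 20109 genes with at least 30 counts over the libraries. Ratios were given exact Clopper-Pearson 95% intervals from the split of a gene's counts between both libraries, and called beyond 2-fold. Log2 ratios used a prior count of 0.5. Ratios of relatives or of pools were compared by the exact conditional interval of the 2 by 2 table of counts. Pairs were a fixed list of known relatives, since no protein table was at hand, and protein motifs were not searched. The calls were tested on simulated counts that held counting error only, which cannot show how they fare with spread between replicates.

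Gene names and sequences came from TAIR10.1, while the submitters name TAIR10; the files hold no coordinates, so all coordinates given are of TAIR10.1. All 44 loci matched it by locus tag. Exon lengths are of the same annotation. With blastn 2.17.0, 3 members had a match of 95% identity over 100 bases, each of them the gene model that overlaps it (IAA3, IAA13 and IAA32). Members and lists were chosen with earlier results of these data known. All 44 members are accounted for: by rule, those called in a comparison and the 3 of each family highest per kb are given with their values, those under the filter by their counts, and pathway genes could be named where called. DESeq2 1.42.0 gave size factors as an alternative, beside total counts, other count filters, a larger prior count, a wider interval and a 1.5-fold limit. Intervals were computed with scipy 1.17.1 in Python 3.11.15.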

Additional observations from a re-analysis of the deposited data

How the results depend on the processing

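No paired analysis was possible because each group has 1 library, and for the same reason no replicate could be left out. Of 120 log2 ratios of single genes, none changed direction among the called ones; a prior count of 5 changed 0 calls, DESeq2 size factors 1, and total counts 13, of which 9 were lost and 4 gained. With total counts the median log2 over all genes went to 0.31 against T0 for both 2-day libraries, from 0.02 for the explant and 0.04 for the 2-day control. The share of all calls that were higher went from 57.1% to 70.1% and from 50.8% to 67.7% in the same order, a shift that all ratios to T0 share. With total counts the ARF sum of the 2-day control over T0 turned from 0.952 to 1.15, ARF genes lower in the explant relative to T0 fell from 5 to 2, and genes higher in the 2-day control relative to T0 were 2 for Aux/IAA and 2 for ARF. ARF genes lower in the explant relative to the 2-day control numbered 1 with DESeq2 size factors, 1 with total counts and 1 with a wider interval of higher confidence, where Aux/IAA genes higher numbered 0 and lower 3. With a 1.5-fold limit the explant against the 2-day control had 4 Aux/IAA genes higher and 8 lower, and 1 ARF gene higher and 4 lower. With that limit ARF genes higher in the explant relative to T0 numbered 4, genes higher in the 2-day control relative to T0 2 for Aux/IAA and 4 for ARF, and pairs that differed in that comparison 6. Filters of 1 and 150 counts left each count of called genes within 1.5 times. With total counts the Aux/IAA genes lower relative to T0 fell from 16 to 13 in the explant and from 11 to 9 in the 2-day control. The filter of 150 counts also gave 13 and 9, since IAA30, IAA32 and IAA34 lie below it.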
